A study of Mus musculus with 629 samples.

Results

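The 34 genes described here encode hydrolases and membrane proteins of the lysosome, subunits of its proton pump, precursors of hydrolase cofactors and a transcription factor. They were taken by symbol from a list of lysosomal genes, out of 53546 gene symbols in a table of single brain cells. All 34 had a row in the table, and 33 reached the level set for a comparison between brain macrophages and microglia. The cells came from brains of adult C57BL/6 mice of 3 Notch3 genotypes, knockout (KO), heterozygous (Het) and wild-type (WT). The labels describe the mice as a reporter line, SM22-Cre;Rosa26-stop-tdTomato, in which the promoter of the smooth muscle gene SM22 drives the recombinase Cre and Cre switches on a red fluorescent protein. Single cells were sorted by FACS into 384-well plates and made into libraries with SMART-seq2, which copies whole polyadenylated transcripts without marking single molecules. The gate of the sort is not given in the labels. They place 119 KO, 70 Het and 211 WT cells among macrophages and 78 KO, 58 Het and 79 WT cells among microglia, on 6 plates. No label names an animal, so each cell type and each genotype within it counts as 1 sample, and no test between them was run. Spread is shown by pools, a pool being the cells of 1 genotype on 1 plate. Each cell type had 8 pools, 2 of KO, 3 of Het and 3 of WT.

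The lysosome is the acidic compartment in which cells break down what they take up and their own worn parts. Hydrolases cut sugars, lipids, proteins and nucleic acids there, a proton pump of many subunits keeps the compartment acidic, and heavily glycosylated membrane proteins shield its wall and carry products out. Macrophages and microglia are professional phagocytes that depend on this machinery, and inherited loss of many of these enzymes causes storage disease with microglial activation in the brain. TFEB, the product of one of the 34 genes, is a transcription factor that switches on many lysosomal genes by binding CACGTG and longer forms of it in their promoters.

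Levels are given as CPM, the counts of a gene per 1000000 counts of all genes other than the ribosomal RNA Rn18s, both added up over the cells of a group. Rn18s took 40.3% of gene counts, and between 16.4% and 56.4% in single pools. A cell held 408845 gene counts at the median, 2751 at the lowest and 2623170 at the highest, and pools summed to between 2470852 and 35356083 counts without Rn18s. The labels matched their markers: 12 of 12 genes of perivascular macrophages stood higher in macrophages, summing to 33873 CPM against 14646 CPM in microglia, and 12 of 12 of microglia stood lower there, at 8668 CPM against 48266 CPM. The microglia thus carried macrophage markers too, between 9994 and 19020 CPM by pool, and the values without the 50 microglia and 1 macrophage that held the other type's markers at the other type's level are given beside the calls and the directions they change. Summed markers of the other brain and blood cell types came to between 1.56 and 685 CPM in macrophages and between 0.261 and 455 CPM in microglia, highest for oligodendrocytes in both. Notch3 itself had 2, 0 and 77 counts in KO, Het and WT macrophages and 1 count in each genotype of microglia, too few to check the genotype labels. Xist, the RNA of the inactive X chromosome, was at 579 CPM or more in both cell types of the KO pool of plate 524s, the Het pool of plate 529s and the WT pool of plate 530s. In the other pools Xist stayed at 8.81 CPM or less and Y-linked genes summed to between 112 and 312 CPM, so each genotype held pools of both sexes.

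The promoters of the genes are shown first, because the motif that TFEB binds was looked for in them. Of the 34 genes, 31 had a promoter in the RefSeq table used here (assembly GRCm38.p6). The 250 bases before the start held CACGTG, a motif that reads the same on both strands, in 8 of the 31 (25.8%), namely Atp6v1a, Cln3, Gaa, Gla, Glb1, Lamp1, Mcoln1 and Naglu. The share was 6.86% over 27025 genes in the table and 11.0% over those of them that reached the level for comparison in these cells. GTCACGTG, searched on both strands, stood in 6 of the 31 (19.4%), against 2.11% of all and 4.78% of measured genes. TCACGTGA, which reads the same on both strands, stood in 4 (12.9%), against 0.907% and 2.41%. Each longer motif contains CACGTG, so these counts overlap. A match is a stretch of letters and does not show that a factor binds there. The 4 stretches below are those of the 8 that overlapped no annotated exon, with CACGTG in capitals and, where it is part of GTCACGTG on either strand or of TCACGTGA, the longer motif in capitals.
Lamp1: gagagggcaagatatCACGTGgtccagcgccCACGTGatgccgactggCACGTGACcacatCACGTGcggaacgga
Atp6v1a: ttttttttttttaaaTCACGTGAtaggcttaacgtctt
Gaa: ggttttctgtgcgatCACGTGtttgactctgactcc
Glb1: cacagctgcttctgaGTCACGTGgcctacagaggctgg
The Lamp1 stretch (chr8:13159085-13159160, plus strand) held 4 copies of CACGTG, between 61 and 15 bases before the start. The Atp6v1a stretch (chr16:44139369-44139406, minus strand) held 1 copy 132 bases before it, the Gaa stretch (chr11:119267808-119267843, plus strand) 1 copy 140 bases before it, and the Glb1 stretch (chr9:114401013-114401050, plus strand) 1 copy 50 bases before it. Atp6v1a and Lamp1 were higher in macrophages in every pool, as described below. Naglu and Mcoln1, which also hold the motif, were lower in macrophages over all cells.

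The first comparison asked which of the genes macrophages express at another level than microglia. Microglia-high genes were Tcirg1, which encodes a membrane subunit of the proton pump best known from osteoclasts, Arsb, the arylsulfatase that takes sulfate off dermatan and chondroitin sulfate, and Laptm5, a lysosomal membrane protein of blood cells that sends surface receptors for breakdown. The 1 macrophage-high gene was Atp6v1a, the catalytic subunit of the same pump. The calls required 20 CPM and a count in 25% of the cells of 1 of the cell types, a difference of 1.5-fold or more, and the same direction in all 8 pools. By this rule 1 of 33 measured genes (3.03%) was macrophage-high, against 4.03% of 6231 measured genes of the whole table. Microglia-high genes were 3 of 33 (9.09%), against 6.15% of all measured genes. Both shares are near those of the whole table. Leaving aside the fold limit, 5 genes were higher in macrophages in all 8 pools (15.2%, against 5.47% of all), and 4 were lower in all 8 (12.1%, against 6.98%). Leaving aside the pools, 6 of 33 (18.2%) lay past 1.5-fold, against 28.4% of all measured genes, 2 of them higher in macrophages (6.06%, against 12.7%) and 4 lower (12.1%, against 15.7%).

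**Figure D1:**
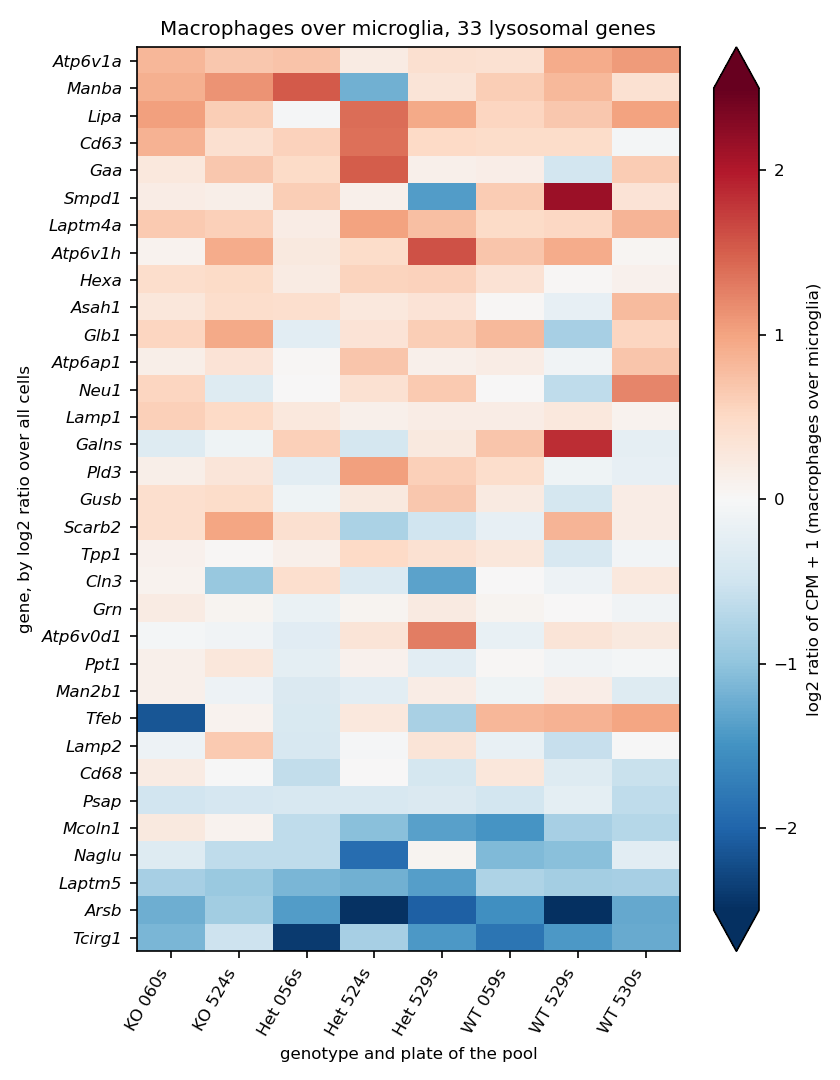
Log2 ratio of macrophages over microglia for 33 genes (rows, ordered by the ratio over all cells) in each of the 8 pools (columns, KO, Het and WT with their plate), red where macrophages were higher and blue where microglia were higher. Tcirg1, Arsb and Laptm5 at the bottom are blue in all 8 columns, and Atp6v1a at the top is red in all 8. Psap is also blue in all 8, and the rows of Mcoln1 and Naglu, blue in most columns, lie between Psap and Laptm5.

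The direction of the group depended on whether genes or counts were weighed. Of the 33 genes, 20 were higher in macrophages and 13 lower, with a median log2 ratio of 0.22, against 0.01 over all measured genes, of which 50.8% were higher in macrophages. Summed over the 34 genes, however, the share of counts was 3.58% in macrophages and 4.02% in microglia, and Laptm5 alone had 4563 CPM in macrophages, against 8761 CPM in microglia. The plot of ratios by pool shows both sides: many rows of pale red, and a few rows of deep blue.

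Tcirg1 had 649 and 840 CPM in KO macrophages, 209, 1058 and 576 CPM in Het macrophages and 288, 398 and 665 CPM in WT macrophages. In microglia it had 1426 and 1206 CPM in KO, 1104, 1883 and 1550 CPM in Het and 1026, 1085 and 1588 CPM in WT. The macrophage pools ran from 209 to 1058 CPM and the microglia pools from 1026 to 1883 CPM, so that they overlapped only where the Het macrophages of plate 524s reached into the lowest microglia, and within every pool macrophages were lower. Over all cells Tcirg1 was at 470 CPM in macrophages (exact Poisson 95% interval 466 to 474), against 1243 CPM in microglia (1235 to 1251), a log2 ratio of -1.40 with an SD of 0.58 over pools. Such intervals cover counting error only, since reads can be PCR copies of 1 molecule, and they are far narrower than the spread between pools.

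Arsb spread more widely than any other gene called between the cell types. It had 944 and 562 CPM in KO macrophages, 183, 638 and 696 CPM in Het and 750.2, 122 and 1091 CPM in WT. In microglia it had 2207 and 1022 CPM in KO, 482, 3530.2 and 2873 CPM in Het and 2164, 1081 and 2633 CPM in WT. Pools of the cell types overlapped, because Het microglia of plate 056s lay below most macrophage pools, but Het macrophages of that plate were lower still. Over all cells the levels were 672 CPM in macrophages, against 1723 CPM in microglia (log2 ratio -1.36, SD 0.76 over pools). Overlapping genes share 39.9% of the annotated exon bases of Arsb, but none of them held more than 36 counts, against 203379 for Arsb.

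Laptm5 separated the cell types without overlap. It had 4179 and 5027 CPM in KO macrophages, 4032, 4543 and 4369 CPM in Het and 4639.6 and 5237 CPM in WT of plates 059s and 530s, with 3794 CPM in WT of plate 529s. In microglia it had 7400.4 and 9589 CPM in KO, 8854, 10515 and 11307 CPM in Het and 7889, 6803 and 9369.5 CPM in WT. The highest macrophage pool, at 5237 CPM, lay below the lowest microglia pool, at 6803 CPM, and the log2 ratio over all cells was -0.94 (SD 0.22 over pools). Psap, the precursor of the saposins that present sphingolipids to their hydrolases, was also lower in all 8 pools but by less than the 1.5-fold limit. It had 2508 and 3027 CPM in KO macrophages, 2199.8, 3072 and 3156 CPM in Het and 2350.1, 4364 and 3334 CPM in WT, against 3508 and 4037 CPM in KO microglia, 2919, 4045 and 4041 CPM in Het and 3236, 5150.3 and 5185 CPM in WT. Its pools overlapped between the cell types, and its log2 ratio was -0.40 over all cells, with a range of only -0.64 to -0.24 within pools.

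**Figure D2:**
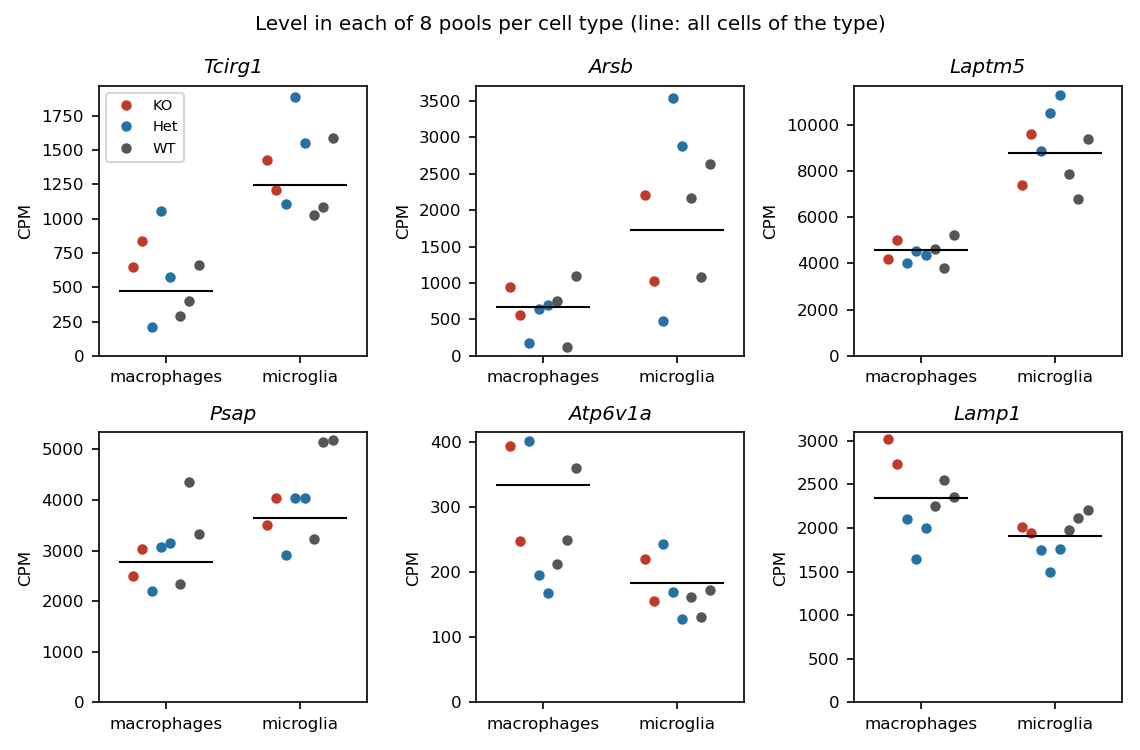
CPM of 6 genes in each of the 8 pools (points, coloured by genotype) of macrophages (left) and microglia (right), with a line at the level over all cells of the type, all axes starting at 0. Laptm5 separates the cell types in the plot, with macrophage pools up to 5237 CPM and microglia pools from 6803 CPM, and the other 5 genes overlap between pools.

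Atp6v1a, the macrophage-high gene, had 393 and 248 CPM in KO macrophages, 400.3, 195 and 169 CPM in Het and 212, 249 and 359 CPM in WT. In microglia it had 220.5 and 156 CPM in KO, 243, 169 and 128 CPM in Het and 162, 131 and 172 CPM in WT. The ranges overlapped between pools, while within each pool macrophages were higher, with log2 ratios of 0.21 to 1.06. Over all cells it had 334 CPM in macrophages, against 183 CPM in microglia, a log2 ratio of 0.86 and a ratio of 1.82-fold. The call was lost with CPM averaged over single cells and when the top cell of each pool was left out. In Het macrophages of plate 529s 1 cell gave 37.7% of the counts, and in Het microglia of plate 056s 1 cell gave 38.2%. Which cell or pool ended the call was not tested.

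Lamp1, an abundant glycoprotein of the lysosomal wall, was higher in macrophages in all 8 pools by a small step. It had 3020 and 2738 CPM in KO macrophages, 2103, 1644 and 2004 CPM in Het and 2258, 2548 and 2357 CPM in WT, against 2011 and 1939 CPM in KO microglia, 1745, 1499.6 and 1755 CPM in Het and 1977, 2116 and 2210.1 CPM in WT. Both KO macrophage pools lay above every other pool of either cell type, and Het macrophages lay among the microglia. The log2 ratio over all cells was 0.29. Laptm4a, a membrane protein of the endosome and lysosome (log2 ratio 0.46), Hexa, the alpha subunit of beta-hexosaminidase (0.38), and Atp6v1h, a regulatory pump subunit (0.38), were likewise higher in all 8 pools and below the fold limit over all cells. Without the cells that held the other type's markers, Laptm4a just passed the limit over all kept cells (log2 ratio 0.59) and stayed higher in all 8 pools. It thus met the rule for a macrophage-high gene, and Atp6v1h was higher in macrophages in 7 pools (0.48). Exons of Lamp1 and Hexa share 9.31% and 12.8% of their bases with Grtp1 and Tmem202, which held 2086 and 176 counts in all.

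Among the other membrane proteins, no gene went one way in every pool. Cd68, the sialomucin used as a mark of phagocytes, had 921 and 1306 CPM in KO macrophages, 983, 1073 and 924 CPM in Het and 1377, 874 and 1194 CPM in WT, against 796 and 1308 CPM in KO microglia, 1510.5, 1072 and 1246 CPM in Het and 1128, 1088 and 1750.2 CPM in WT. The cell types overlapped almost entirely, and 3 of 8 pools were higher in macrophages (log2 ratio -0.17). The tetraspanin gene Cd63 was higher in macrophages in 7 pools (0.52), and Lamp2, needed for fusion with autophagosomes, in 2 pools (-0.13). Scarb2, the receptor that carries glucocerebrosidase to the lysosome, was higher in macrophages in 5 pools (0.18), and Cln3, the gene of juvenile Batten disease, in 4 (0.08, and -0.024 without the cells that held the other type's markers). Exons of Cln3 share 7.65% of their bases with Apobr.

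The glycosidases leaned towards macrophages, with 6 of 8 measured genes higher there and a median log2 ratio of 0.31, and none was called. Manba, beta-mannosidase, was past the fold limit over all cells at 0.77 and higher in macrophages in 7 of 8 pools. Gaa, the acid glucosidase lost in Pompe disease, was higher in 7 pools (0.48, and 0.61 without the cells that held the other type's markers, past the fold limit but still in 7 pools), and Glb1, beta-galactosidase, Gusb, beta-glucuronidase, and Neu1, a sialidase, in 6 pools each (0.32, 0.22 and 0.30). Man2b1, the acid mannosidase, lay near equality (-0.09). Naglu, which removes acetylglucosamine from heparan sulfate, went the other way, with 116 CPM in macrophages, against 190.2 CPM in microglia (log2 ratio -0.71), lower in macrophages in 7 pools and equal within 0.06 on the log2 scale in Het of plate 529s. Without the cells that held the other type's markers, Naglu was lower in macrophages in all 8 pools (log2 ratio -0.85), and met the rule for a microglia-high gene. Gla, the galactosidase lost in Fabry disease, was the gene below the level for comparison, with 7.33 CPM in macrophages, against 3.75 CPM in microglia, and with a count in 5.50% and 7.91% of cells. Exons of Glb1 share 5.49% of their bases with Tmppe, which held 6967 counts against 39576 for Glb1.

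The sulfatases parted. Arsb was microglia-high, as shown, while Galns, which takes sulfate off keratan sulfate, had 72.7 CPM in macrophages, against 60.1 CPM in microglia, and was higher in macrophages in 4 of 8 pools. The hydrolases of lipids, peptides and nucleic acids were higher in macrophages in 5 of 6 cases, with a median log2 ratio of 0.28 and no call. Lipa, the acid lipase that frees cholesterol from its esters, had the highest ratio among them at 0.57 (1.49-fold), just below the limit, and was higher in macrophages in 7 pools. Smpd1, acid sphingomyelinase, was at 0.47 and Asah1, acid ceramidase, at 0.34, each higher in macrophages in 7 pools. Pld3, a nuclease of the lysosome (0.23), and the peptidase Tpp1 (0.13) were higher in macrophages over all cells, and Ppt1, which removes palmitate from proteins, lay at -0.07. Exons of Ppt1 share 3.51% of their bases with Cap1.

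Grn, which encodes progranulin, the precursor of the granulins, was the most abundant of the genes in counts in macrophages and did not separate the cell types. It had 9877 and 9731 CPM in KO macrophages, 5717, 8085 and 9509 CPM in Het and 6196, 8636 and 7975 CPM in WT. In microglia it had 8545 and 9238 CPM in KO, 6406, 7723 and 8085 CPM in Het and 5945, 8582 and 8496 CPM in WT. The pools overlapped throughout, and the level over all cells was 7376 CPM in macrophages, against 7426 CPM in microglia (log2 ratio -0.01, SD 0.13 over pools).

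The pump and channel genes held both extremes, with Atp6v1a at the top and Tcirg1 at the bottom of the list. Their summed level was 2363 CPM in macrophages, against 2771 CPM in microglia. Atp6ap1, an accessory subunit that helps assemble the pump, was higher in macrophages in 7 pools (0.31), and Atp6v0d1, a subunit of its membrane part, was near equality (-0.02). Without the cells that held the other type's markers, Atp6ap1 was higher in macrophages in all 8 pools (0.40) and Atp6v0d1 lay at 0.095. Mcoln1, the calcium channel that signals from the lysosome to TFEB, had 108 CPM in macrophages, against 156 CPM in microglia (-0.53), and was lower in macrophages in 6 of 8 pools. Tfeb itself had few counts, with 6.63 and 28.9 CPM in KO macrophages, 21.5, 36.0 and 18.2 CPM in Het and 15.2, 1.39 and 25.1 CPM in WT, against 32.8 and 27.2 CPM in KO microglia, 28.2, 29.8 and 32.5 CPM in Het and 8.17, 0.312 and 12.2 CPM in WT. Macrophages overlapped with microglia, with a log2 ratio of -0.12, and 1 cell gave 97.7% of the counts of the KO macrophages of plate 524s.

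The share of all counts that fell on the 34 genes was lower in macrophages than in microglia in all 8 pools. It was 4.14% and 4.04% in KO macrophages, 3.18%, 3.59% and 3.73% in Het and 3.23%, 3.35% and 3.91% in WT. In microglia it was 4.17% and 4.23% in KO, 3.90%, 4.27% and 4.34% in Het and 3.62%, 3.90% and 4.65% in WT. The gap was smallest in the KO pool of plate 060s and largest in the WT pool of plate 530s. It rested on Laptm5: summed without that gene, a sum added after the values were seen, the share was 3.13% in macrophages and 3.14% in microglia, and macrophages were lower in 5 of 8 pools. They were then higher in both KO pools, at 3.73% and 3.54% in macrophages against 3.43% and 3.27% in microglia, and in Het of plate 529s, at 3.30% against 3.21%. Membrane proteins, Laptm5 among them, took 1.03% of counts in macrophages and 1.39% in microglia, while the glycosidases went the other way with 0.809% in macrophages and 0.718% in microglia.

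**Figure D3:**
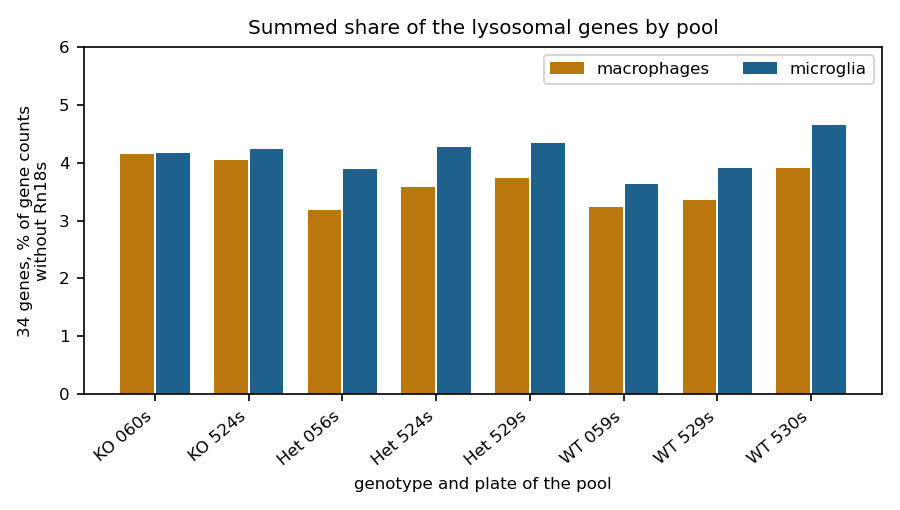
Summed share of the 34 genes, in percent of gene counts without Rn18s, in macrophages and microglia of each of the 8 pools (bars from 0, KO, Het and WT with their plate). The macrophage bar is the lower of each pair, and the KO macrophage pools, at 4.14% and 4.04%, are the highest of the macrophage bars.

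Divided by exon length, levels can be set between genes. In macrophages the order by CPM per kb of exon was Grn at 2123, Hexa at 1504, Laptm5 at 1204, Psap at 1010.1, Cd68 at 886 and Lamp1 at 875. In microglia it was Laptm5 at 2313, Grn at 2138, Psap at 1331, Hexa at 1158, Cd68 at 997 and Lamp1 at 714. The same 6 genes thus led in both cell types, with Laptm5 at rank 3 in macrophages and rank 1 in microglia. Ranges of neighbours over pools overlapped all along both orders, with these exceptions: Grn stood clear of Hexa in macrophages (1646 or more against 1641 or less), Lamp1 of Laptm4a in macrophages (615 or more against 527 or less), and Lamp1 of Man2b1 in microglia (561 or more against 435 or less). At the low end stood Atp6v1h at 8.83 in macrophages and 6.74 in microglia, Tfeb at 3.45 and 3.77, and Gla at 2.24 and 1.15. Exon lengths came from GENCODE M21, and the annotation the authors counted with is not given in the sources used here.

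**Figure D4:**
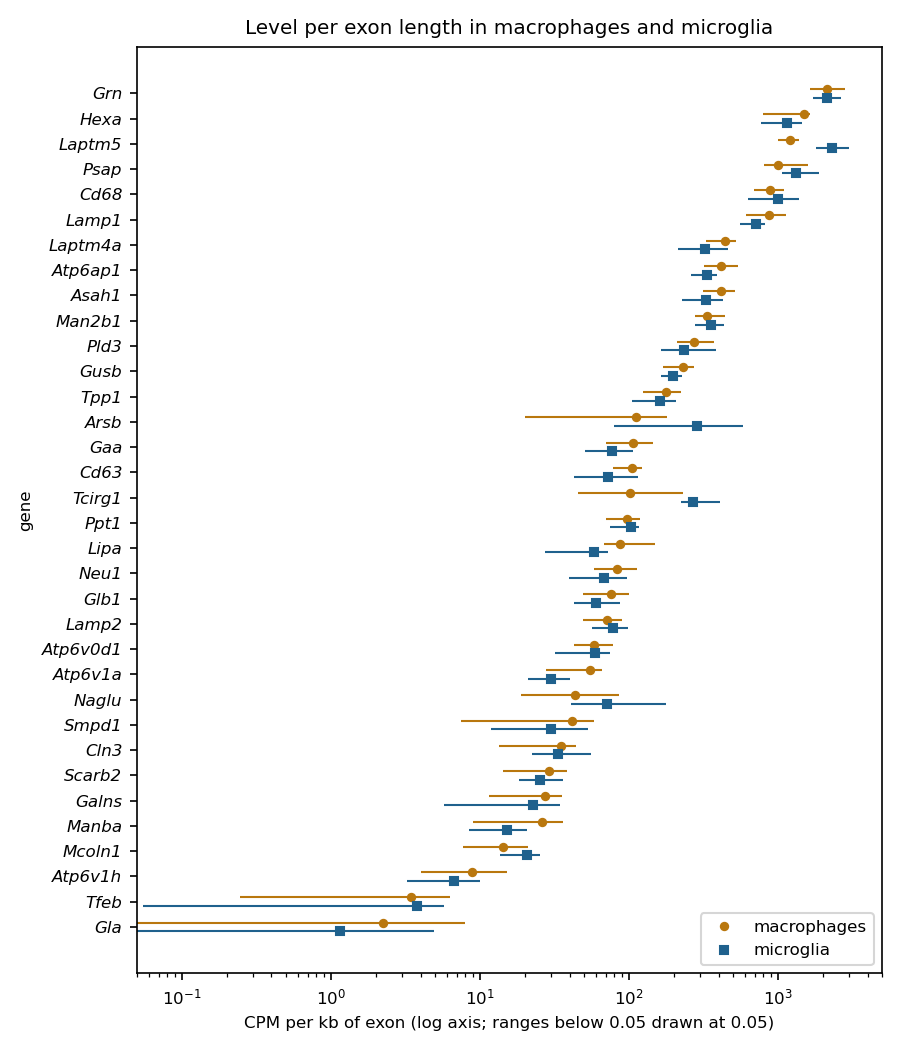
CPM per kb of exon of the 34 genes on a log axis in macrophages (upper mark of each pair) and microglia (lower mark), with lines from the lowest to the highest of the 8 pools. Grn is highest in macrophages at 2123 and Laptm5 in microglia at 2313, and Tfeb and Gla are lowest in both.

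A count in 95% of cells or more was found for 15 of the 34 genes in macrophages and for 18 in microglia. Each cell was thinned to 66287 gene counts without Rn18s, which left 353 macrophages and 200 microglia and left out 47 and 15 shallower cells. Naglu then had a count in 41.1% of macrophages (exact binomial 95% interval 35.9 to 46.4) and 75.5% of microglia (68.9 to 81.3), against 48.8% and 83.3% before thinning. Mcoln1 had one in 41.9% of macrophages (36.7 to 47.3) and 64.5% of microglia (57.4 to 71.1), and Tcirg1 in 77.3% (72.6 to 81.6) and 99.0% (96.4 to 99.9). These 3 genes also had the lower CPM in macrophages. Tfeb had a count in 11.3% of macrophages (8.22 to 15.1) and 22.0% of microglia (16.5 to 28.4), and Atp6v1a in 72.2% (67.3 to 76.9) and 69.0% (62.1 to 75.3). Of the 21 genes with the higher CPM in macrophages, 14 had a count in a smaller share of macrophages than of microglia, among them Scarb2 (57.8% and 73.5%), Cln3 (66.9% and 80.0%), Gaa (74.5% and 80.0%) and Neu1 (71.7% and 77.5%). No order is read from the shares of those 14, and lower shares in macrophages were found on both sides of the CPM order. Cells are not replicates, and the intervals cover counting error only.

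Other genes of the lysosome, 79 in 4 lists, were also called in both directions. Of 73 measured, 4 were macrophage-high, against 4.03% of all measured genes. They were the membrane protein genes Tmem192 and Mfsd1, the pump subunit gene Atp6v1g1 and Lamtor3, of the complex that docks the growth kinase mTORC1. Microglia-high genes, 6.15% of all measured genes, included Sort1, Slc29a3, Slc36a1 and Atp6v0a2 here. Atp6v0a2, which encodes another form of the pump subunit that Tcirg1 encodes, had 38.9 CPM in macrophages, against 197 CPM in microglia, and Sort1, the sorting receptor of Psap and Grn products, had 33.0 CPM in macrophages, against 116 CPM in microglia. The median log2 ratio was 0.22 over the 73 genes, the same to 2 decimals as in the 33.

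The next comparison asked where KO macrophages stand against Het and WT macrophages. A gene was called when KO was 1.5-fold or more away from Het and from WT in 1 direction and both KO pools lay outside the range of the 6 other pools. None of 32 measured genes was called in either direction, and over all measured genes 0.839% were called above and 1.64% below. As a shift without the pools, 19 of 32 genes (59.4%) were higher in KO than in both Het and WT macrophages at any fold, against 28.2% of all measured genes. The median log2 ratio of KO was 0.34 over Het and 0.24 over WT, against -0.07 and -0.06 over all measured genes. Both ratios share the KO pools. Most plates held 1 genotype only, in both cell types. Plate 060s gave 13124510 of 17731269 counts without Rn18s in KO macrophages, and plate 056s 33892157 of 39050977 in Het. Plate 530s gave 35356083 of 59471835 in WT. The median per macrophage was 116105 such counts on plate 060s, 891311 on plate 056s and 214869 on plate 530s. In these pooled ratios genotype and plate thus cannot be told apart. With Rn18s counted in the total, the median over Het was -0.089 beside -0.50 over all genes, so the shift held relative to other genes and not in sign.

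**Figure D5:**
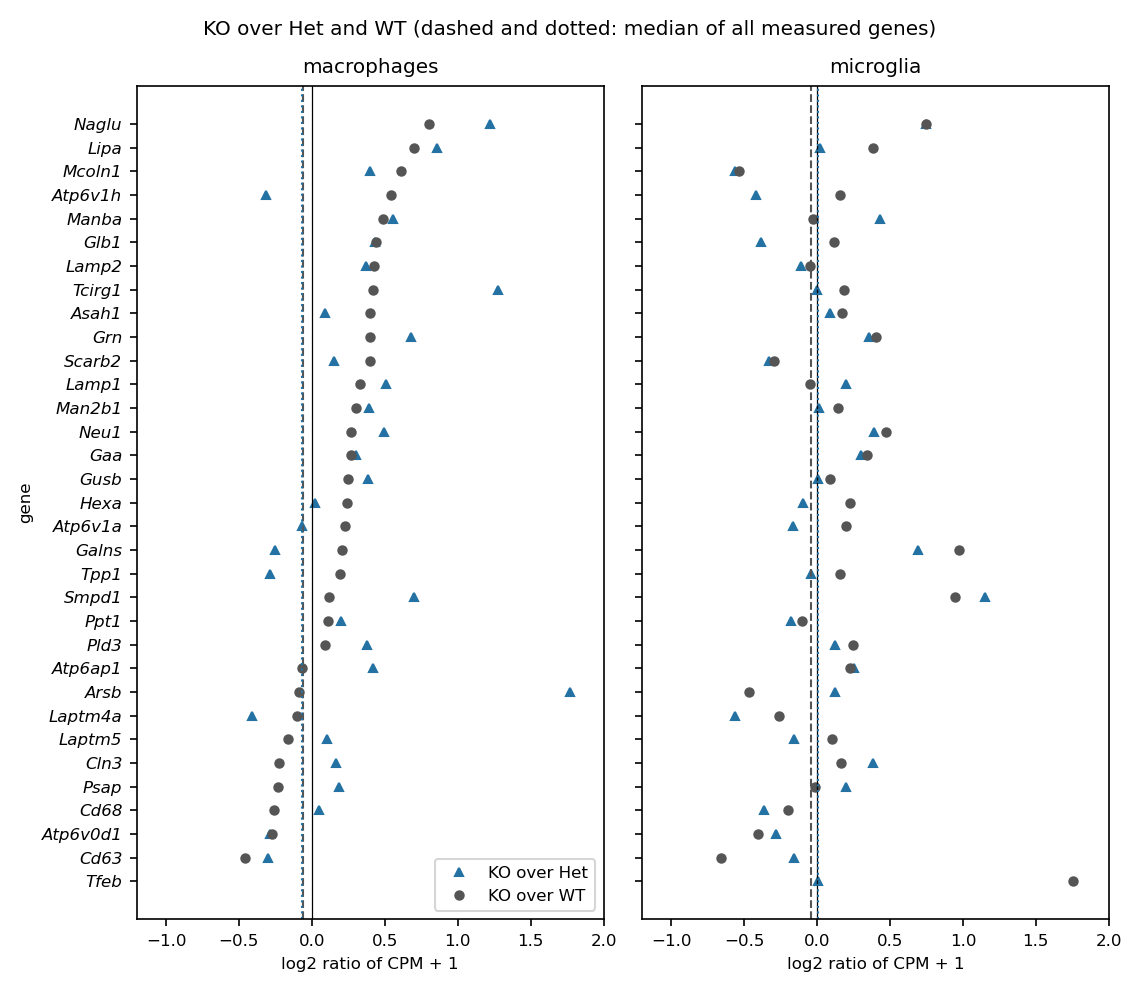
Log2 ratio of KO over Het (triangles) and KO over WT (circles) for the measured genes in macrophages (left) and microglia (right), in the order of the ratio over WT in macrophages, with dashed and dotted lines at the median of all measured genes. In macrophages most marks lie to the right of the lines (medians 0.34 and 0.24), and in microglia they lie on both sides (medians 0.01 and 0.15).

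Naglu and Lipa were the genes past 1.5-fold over both, 6.25% of 32 against 4.27% of all measured genes, and none lay as far below both, against 7.57%. Naglu had 204 and 179 CPM in KO macrophages, 73.6, 78.9 and 222 CPM in Het and 50.3, 229 and 130 CPM in WT. The KO pools lay inside the range of the others, because both pools of plate 529s were higher. Lipa had 1008 and 596 CPM in KO macrophages, 475, 493 and 772 CPM in Het and 508, 465 and 590.1 CPM in WT, and the Het pool of plate 529s lay between the KO pools. Both genes met the rule with plate 529s left out, but that takes away the very pools that overlapped KO, so the outcome was fixed beforehand. With each of the 6 plates left out in turn, Naglu met the rule in 1 case and Lipa in 2. Grn and Lamp1 had both KO pools above all 6 other pools, as the values above show, by less than 1.5-fold over WT. Lamp2, Gusb and Hexa did too, with KO pools at 860 and 847, 1242 and 1251, and 3275 and 3266 CPM. Their highest other macrophage pools were at 759, 1194 and 3240 CPM. The share of all measured genes with this separation was not counted. Grn was 1.61-fold above Het and 1.32-fold above WT, and Lamp1 1.43-fold and 1.26-fold. Plate 056s gave most of the counts of Het macrophages, and its Grn level of 5717 CPM was the lowest of the Het pools. Within plate 524s the log2 ratio of KO over Het macrophages was 0.27 for Grn and 0.74 for Lamp1.

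The summed share was highest in KO macrophages. At 4.14% and 4.04%, both KO macrophage pools lay above the 6 others, whose highest was 3.91%. Without Grn the KO pools were at 3.16% and 3.07% and the WT pool of plate 530s at 3.11%, so the separation rested on Grn. Within plate 524s, which held both KO and Het, the median log2 ratio of KO over Het macrophages was 0.17, against -0.04 over all genes, and 20 of 32 genes were above 0. In that plate KO cells carried Xist and Het cells Y-linked genes, so genotype and sex cannot be told apart there. The summed microglia markers in macrophages were 9630.4 CPM in KO, 8218 CPM in Het and 8676 CPM in WT, and their part in these values was not tested.

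Het macrophages lay slightly below WT macrophages, with a median log2 ratio of -0.11 against 0.02 over all genes. Smpd1 was called below WT, 1 of 32 genes, against 3.63% of all measured genes, and none was called above, against 2.36%. It had 109.7 CPM in Het of plate 056s, 92.7 CPM in plate 524s and 24.9 CPM in plate 529s, against 115, 177 and 173 CPM in WT of plates 059s, 529s and 530s. The groups did not overlap but nearly touched, and the level was 103 CPM in Het and 155 CPM in WT, lower in Het by just the 1.5-fold limit. Other scalings, pseudocounts and plates ended this call. Within plate 529s, the median of Het over WT was 0.20, against 0.02 over all genes, the opposite sign. On this plate Het cells carried Xist and WT cells Y-linked genes, so genotype and sex cannot be told apart there either.

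In microglia Galns and Smpd1 were called above Het and WT in KO, 2 of 33 genes (6.06%), against 1.25% of all measured genes, and none was called below, against 0.971%. Smpd1 had 139 and 176 CPM in KO microglia, 70.8, 84.4 and 67.3 CPM in Het and 74.0, 39.6 and 137 CPM in WT. The lower KO pool lay just above the WT pool of plate 530s and well above the rest. The log2 ratio was 1.15 over Het and 0.95 over WT, and Smpd1 in KO macrophages, at 158 and 195 CPM, was not apart from WT.

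Galns had 85.7 and 91.1 CPM in KO microglia, 61.6, 74.2 and 25.6 CPM in Het and 41.8, 15.3 and 71.4 CPM in WT. Here too the groups did not overlap, and the nearest pool was the Het pool of plate 524s. The log2 ratio was 0.70 over Het and 0.98 over WT. Counts of Galns came from few cells, since 1 cell gave 92.5% of them in Het of plate 056s and another all of them in WT of plate 529s. Both calls were lost with CPM averaged over single cells, at the 2-fold limit and in thinned cells. Smpd1 was also lost with TMM factors and with DESeq2 size factors, and stayed with each plate left out. Galns was also lost with Rn18s in the total, with plate 529s left out and on plates 056s, 059s and 060s alone.

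Over the group, KO microglia showed little shift, with a median log2 ratio of 0.01 over Het and 0.15 over WT, against 0.01 and -0.04 over all measured genes. At any fold, 14 of 33 genes (42.4%) were above both Het and WT, against 31.4% of all. Past 1.5-fold without regard to pools, Naglu joined Galns and Smpd1 above both (9.09%, against 4.49%), and none lay below both (against 6.61%). Within plate 524s the median of KO over Het was 0.04, as over all genes. Tfeb was called above WT in Het microglia, 1 of 33 genes against 2.61% of all, and none was called below, against 2.85%. It was at 29.4 CPM in Het and 8.06 CPM in WT, and the Het pools, at 28.2 to 32.5 CPM, lay well above the WT pools, at 0.312 to 12.2 CPM. KO microglia, at 32.8 and 27.2 CPM, stood with Het. The WT pool of plate 529s held 1 count of Tfeb in 15 cells, so its part of the gap rests on very few counts. The median of Het over WT was 0.08 over the group, against -0.04 over all genes.

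None of the 72 measured genes of the other lysosomal lists was called apart in KO macrophages or KO microglia. Their median log2 ratio in KO macrophages was 0.0011 over Het and -0.080 over WT, against 0.34 and 0.24 for the 32 genes above. By list, the median over Het was 0.27 for other hydrolases, 0.05 for other membrane proteins, -0.28 for other pump subunits and -0.24 for regulators, and over WT it was -0.04, -0.02, -0.22 and -0.27 in the same order. The difference from the 32 genes was not tested. Between Het and WT, 2 of the 79 listed genes were called above and 2 below in Het macrophages, against 2.36% and 3.63% of all measured genes. In Het microglia 1 was called above and 4 below, against 2.61% and 2.85%. The lipid hydrolase gene Galc and the acid phosphatase gene Acp2 were above in Het macrophages, at 97.2 CPM in Het against 53.6 CPM in WT and at 523 against 312 CPM. Abca2, a lipid transporter of the lysosome, was below WT in both cell types of Het, at 14.2 CPM in Het against 47.0 CPM in WT macrophages and at 24.7 CPM in Het against 41.7 CPM in WT microglia. Atp6v0a2 was below WT in Het macrophages. Ctns, the cystine transporter, was above WT in Het microglia, and Tpcn2, Atp6v0e and Lamtor3 were below.

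The ratio of the cell types was also set out by genotype. The median log2 ratio of macrophages over microglia was 0.26 in KO, 0.06 in Het and 0.22 in WT, against -0.04, 0.01 and -0.01 over all genes. Tcirg1 was at -0.90 in KO, -2.18 in Het and -1.13 in WT, and Arsb at -0.87 in KO, -2.52 in Het and -1.24 in WT, so that both were lower in macrophages in each genotype. The Het values lean on plate 056s, which gave most of the counts of Het macrophages. Smpd1 was at 0.07 in KO, 0.52 in Het and 0.90 in WT.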

How the data were processed

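The authors deposited 1 table of raw counts, whole numbers with no normalization, in which 629 cells are columns and 53546 gene symbols and 92 ERCC spike-ins are rows. The submitters' processing notes name STAR as aligner, with no version. The genome build, annotation, counting program and cell filter are not given in the sources used here. Each column was matched to its labels by name, no pair of columns was identical, and the 14 cells of a type named only 7 were left out of the comparisons.

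The counts of the cells of 1 type, genotype and plate were added up and divided by the summed gene counts without Rn18s and ERCC, giving CPM. Log2 ratios used CPM + 1. A gene was measured at 20 CPM with a count in 25% of cells of 1 group, and called at 1.5-fold with the pool rules given in the results, applied over the whole table for the background. SMART-seq2 reads carry no strand, so reads of overlapping genes cannot be told apart. Poisson and Clopper-Pearson intervals are at 95%. Exon lengths and overlaps came from GENCODE M21, and promoters from RefSeq by symbol. The genes, the lists and the rules were chosen with earlier results of these data known. Pool values are given for called genes, at most 6 in each direction, and for Tfeb, Lamp1, Psap, Grn and Cd68, and genes of other lysosomal lists are named where called, except for a result not reported here. The values shown for Naglu, Lipa and Mcoln1 fall outside this rule and were chosen after they were seen. The scripts were tested on simulated data.

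Alternatives replaced the total, the scaling (edgeR TMM and DESeq2 size factors), the summary over cells, the pseudocount, the floor and the fold limit, thinned the cells, left out shallow cells, top cells or each plate, and used sets of plates alone. Python 3.11.15, numpy 2.4.6, pandas 2.3.3, scipy 1.17.1 and matplotlib 3.10.9 were used, with edgeR 4.0.16 and DESeq2 1.42.0 in R 4.3.3.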

Additional observations from a re-analysis of the deposited data

Results flagged for a closer look

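Manba had 1 pool far from the others: its log2 ratio of macrophages over microglia was -1.202 in Het of plate 524s, where 62.3 CPM in macrophages stood against 145 CPM in microglia, and the next lowest of the 8 pools was at 0.32. Atp6v0d1 had 1 such pool on the high side, Het of plate 529s, with a log2 ratio of 1.27, from 140 CPM in macrophages against 57.3 CPM in microglia, and the next highest was at 0.32. The limit for such a gap, Dixon's 95% critical value, is set so that chance passes it in about 1 in 20 groups, and 33 genes were looked at.

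Mcoln1, the calcium channel of the lysosome, differed between genotypes in the direction of its ratio. It had 159 and 109.6 CPM in KO macrophages against 134 and 103 CPM in KO microglia, so that macrophages were higher in both KO pools. It had 118, 59.9 and 63.2 CPM in Het macrophages against 184, 125 and 165 CPM in Het microglia, and 57.9, 97.4 and 115 CPM in WT macrophages against 163, 173 and 190.1 CPM in WT microglia, so that macrophages were lower in all 6. The log2 ratio was 0.32 in KO, -0.63 in Het and -0.83 in WT. By pool the KO ratios were small, at 0.25 and 0.09. On plate 524s 1 cell gave 32.5% of the counts of KO macrophages and another 38.3% of those of KO microglia. Het macrophages of plate 529s had 43.5% from 1 cell. The difference between genotypes was not tested, and the share of all measured genes that part in this way was not counted.

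The 14 cells of the type named 7, which entered no comparison, held more than 3 counts of 33 of the 34 genes, and Tfeb held 1 count. The 34 genes made up 2.96% of their gene counts without Rn18s. In these cells perivascular macrophage markers summed to 27779 CPM, microglia markers to 13880.1 CPM and oligodendrocyte markers to 4157 CPM.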

How the results depend on the processing

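Macrophages and microglia were compared within each of the 8 pools. Between genotypes, the labels give no replicate numbers and name no animal, so no fit with a replicate block was made. Each of the 34 ratios of macrophages over microglia moved by less than its SD over pools under all 23 alternatives. Within that SD, the ratios of Lamp2, Cln3, Man2b1, Galns, Tpp1, Grn, Atp6v0d1 and Tfeb changed sign between settings. Atp6v0d1, for example, ran from -0.23 to 0.38 and Tfeb from -0.44 to 0.09. The split of 20 genes higher in macrophages and 13 lower thus depends on the setting. Tcirg1 and Arsb stayed microglia-high in all of them, and Laptm5 in all but the 2-fold limit. The microglia-high genes numbered 2 to 4. The median log2 ratio of macrophages over microglia ran from 0.14 to 0.29. The cause of the changes below was not tested.

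The macrophage-high gene count of 1 became 0 at 2-fold, 5 at 1.2-fold, 3 with CPM averaged over cells or over pools, 4 in thinned cells, 2 without cells holding the other type's markers, 1 to 2 with a plate left out, 2 on plates 056s, 059s and 060s alone and 3 on plates 524s, 529s and 530s alone. The count apart in KO macrophages, 0, became 3 at 1.2-fold, 1 in thinned cells, 5 on plates 056s, 059s and 060s alone and 0 to 2 with a plate left out. The count for Het macrophages, 1, became 0 with Rn18s in the total, TMM factors, DESeq2 size factors, a pseudocount of 10, the 2-fold limit or the top cells left out, 3 and 4 on the same sets of plates, and 0 to 3 with a plate left out.

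In microglia, the count of 2 apart in KO became 1 with Rn18s in the total, TMM or DESeq2 factors, 0 with CPM averaged over cells, at 2-fold and in thinned cells, and 1 to 4 with a plate left out. The count of 1 for Het became 0 with Rn18s in the total or a floor of 50 CPM, 6 and 3 on the sets of plates, and 1 to 3 with a plate left out. Fewer pools make the rules easier to meet by construction.

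The median of KO over Het macrophages was -0.089 with Rn18s in the total, 0.24 with CPM averaged over cells, 0.26 in thinned cells, 0.41 without top cells, 0.16 on plates 524s, 529s and 530s alone and 0.25 to 0.37 with a plate left out. That of KO over WT macrophages was 0.40 on plates 056s, 059s and 060s alone and 0.13 to 0.39 with a plate left out. That of Het over WT macrophages was 0.36 with Rn18s in the total, where all genes had 0.51. In microglia, KO over Het was -0.20 with Rn18s in the total, as over all genes, 0.16 with CPM averaged over cells, 0.14 on plates 524s, 529s and 530s alone and -0.087 to 0.19 with a plate left out. KO over WT was -0.014 with Rn18s in the total, 0.32 and -0.026 on the sets of plates and 0.04 to 0.26 with a plate left out. Het over WT was -0.16 on plates 524s, 529s and 530s alone and -0.066 to 0.15 with a plate left out. Gla, Tfeb and Galns had a count in 5.50%, 15.5% and 25.0% of macrophages, so that few cells carry their pool values. The number of pools with a lower summed share in macrophages, 8, became 5 without Laptm5, and was 8 without Grn, both added after the values were seen.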
